A study of Rattus norvegicus with 20 samples.

Results

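The members described here are 10 genes of the transient receptor potential (TRP) channel family, of 32402 Ensembl genes in the tables. They are Trpv1, Trpv2, Trpv4, Trpc1, Trpc4, Trpc5, Trpm2, Trpm3, Trpm4 and Trpm7, listed by symbol with earlier results of these data known. Each symbol matched 1 gene. RNA was sequenced from bilateral 1-mm punches of the hypothalamic supraoptic nucleus (SON) of 20 male Wistar Han rats, 5 in each of 4 groups. Adult rats were 3 months old and aged rats 18 months old. Euhydrated (EH) rats had free access to water, and dehydrated (DH) rats were without water for 2 days according to the sample labels, while the methods of the study give a longer period. Nothing but age and water differed between the groups by the labels, and each library is 1 rat. The comparisons were aged EH against adult EH (ageing), DH against EH at each age, and the aged response to DH less the adult one. Ageing shares its adult EH rats with the adult DH comparison and its aged EH rats with the aged DH comparison.

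TRP channels are tetrameric cation channels, most of which pass calcium as well as sodium and so depolarise the cells that carry them. In the magnocellular neurons of the SON, which make vasopressin and oxytocin, a rise in plasma osmolality shrinks the cell and opens a stretch-inhibited cation conductance that is linked to Trpv1, in an amino-terminally shortened form. Trpv2 and Trpv4 respond to swelling or stretch, TRPC channels open downstream of phospholipase C, and the TRPM members range from calcium-activated and ADP-ribose-activated channels to a magnesium channel with its own kinase. The tables count reads per gene, so the shortened form of Trpv1 and the full-length one were not separated.

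Reads counted on genes, recovered from the deposited values, came to between 24268398 and 30348118 per library, with a median of 27691998. Pearson's r of log2 values across genes lay between 0.982 and 0.992 over the 190 pairs of libraries. The defining genes of the nucleus, Avp for vasopressin and Oxt for oxytocin, ranked 8 and 15 of all genes by mean level, so the punches held the labelled tissue. Markers of neighbouring telencephalic glutamatergic neurons differed widely between rats, their summed level running from 837 to 3982 reads scaled together over the 20 libraries, and none of the markers matched was at 0 in any library. In whole-tissue RNA, fewer cells of a type and less RNA per cell cannot be told apart.

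All 10 members passed the filter of a mean of at least 10 normalized counts in every comparison. Trpv4 was the most sparsely counted, with 22 to 55 reads per rat, followed by Trpv1 with 50 to 103 and Trpm4 with 117 to 192, while Trpm3 had 2047 to 3011. These counts are not set against each other between genes, because transcript lengths were not at hand. Counting error therefore weighs most on Trpv4 and Trpv1, the members best known for osmosensing.

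**Figure D1:**
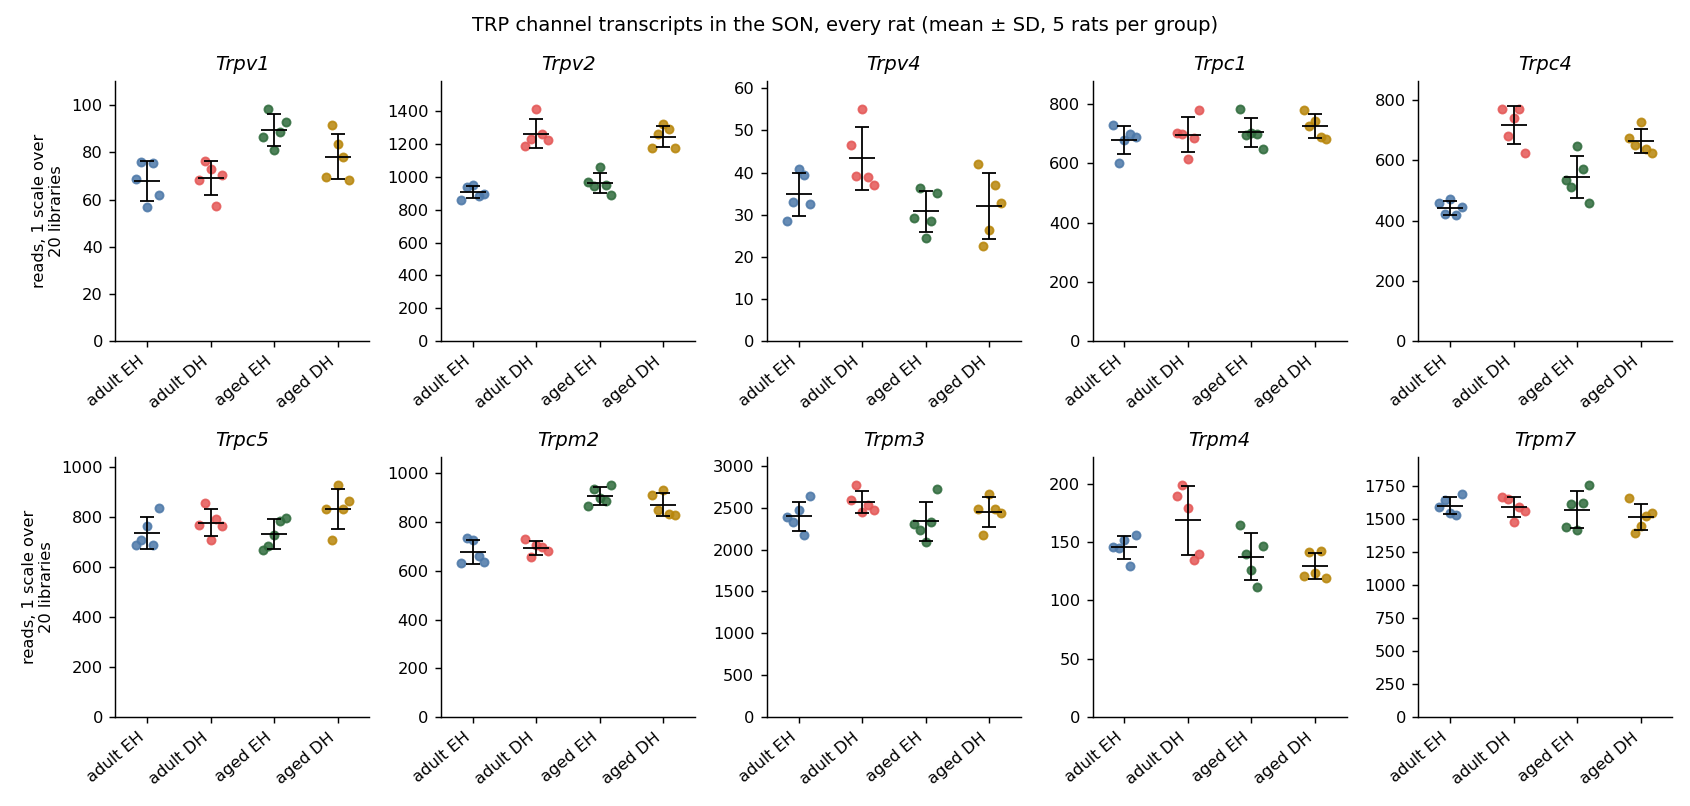
Reads of each of the 10 TRP genes, scaled together over all 20 libraries, on the vertical axis of each panel (each panel has its own scale from 0) against group, with 1 point per rat and the mean ± SD of 5 rats in black. Trpc4 and Trpv2 stand higher in adult DH than in adult EH without overlap, and Trpm2 stands higher in both aged groups than in both adult groups.

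Trpc4 and Trpv2 were higher with DH at both ages, and Trpm2 was higher with ageing. No member was called lower in any comparison. By limma with a Benjamini-Hochberg adjusted threshold of 0.05 over all genes tested, 1 of 10 members was called in ageing, where 5.99% of all genes were called. In adult DH 2 of 10 were called, against 12.7% of all genes. In aged DH 2 of 10 were called, against 7.29% of all genes. The members are too few for these counts to set the family apart from all genes. The median LFC (log2 fold change) of the members was 0.02 in ageing, 0.09 in adult DH and 0.04 in aged DH, while the median over all genes tested was 0.00033, -0.0073 and -0.0030. For the aged less the adult response, limma called none of the members and none of 15326 genes (0%), with 1522 genes at an unadjusted p under 0.05. On the recovered reads edgeR called 0 genes for it and DESeq2 55. By edgeR on these reads 2 members were called in ageing, 2 in adult DH, 1 in aged DH and 0 for the difference, against 5.85%, 12.7%, 7.37% and 0% of all genes. By DESeq2 the members called were 2, 2, 2 and 1, against 8.42%, 14.7%, 9.98% and 0.359%.

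**Figure D2:**
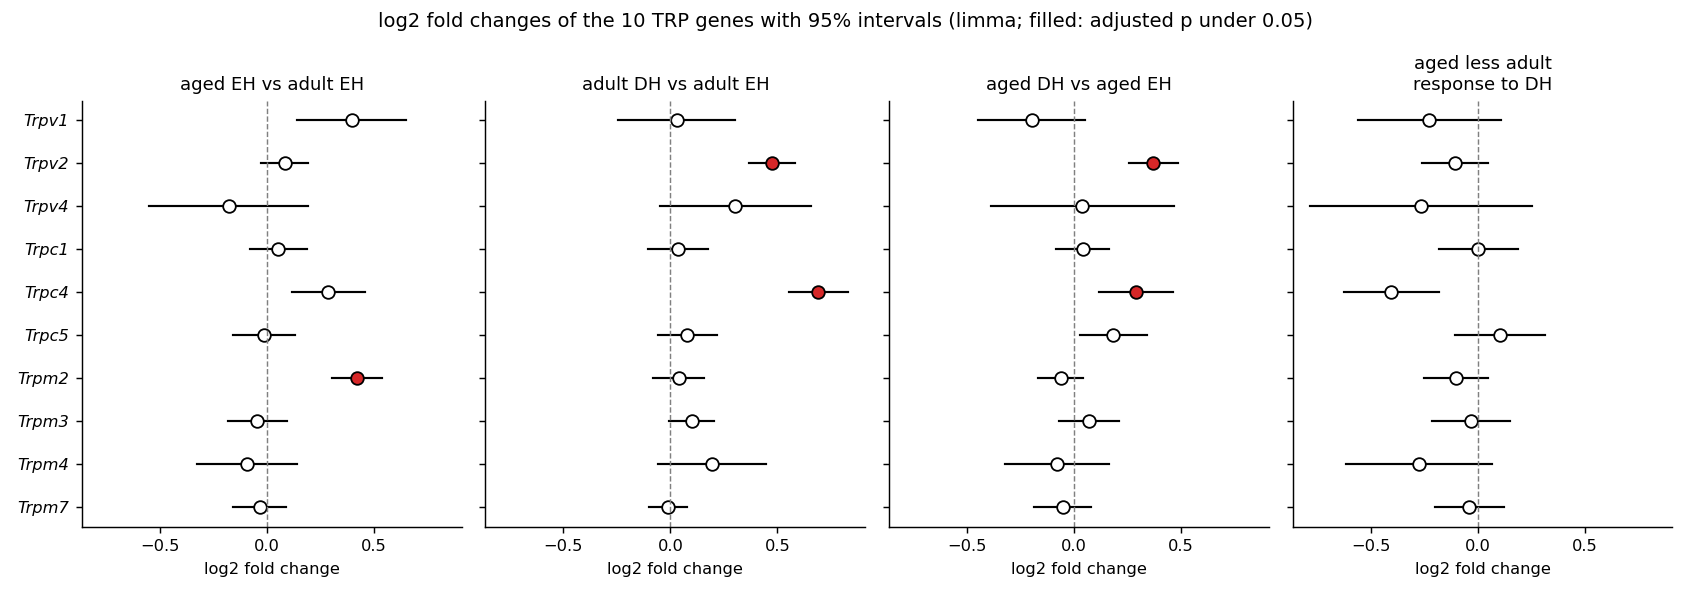
LFC of each member on the horizontal axis, with its 95% interval from limma, in the 3 comparisons and for the difference between the aged and the adult response to DH. Filled points have an adjusted p under 0.05, which are Trpm2 in ageing and Trpv2 and Trpc4 in both DH comparisons.

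Among the vanilloid (TRPV) members, Trpv1, the capsaicin and heat receptor, showed no response to DH that passed the test. In adult EH rats its normalized counts were 67.4, 74.3, 55.6, 73.9 and 60.8, and in adult DH rats 66.7, 74.6, 71.6, 56.1 and 69.3. The groups lay over each other, with an LFC of 0.03 (95% interval -0.24 to 0.30, limma adjusted p = 0.916). In aged rats the mean was 90.9 ± 6.60 (SD, n = 5) in EH and 79.5 ± 9.74 (SD, n = 5) in DH, with overlapping values and an LFC of -0.20 (95% interval -0.45 to 0.05, limma adjusted p = 0.363). Changes of a size within these intervals remain compatible with the counts.

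Ageing gave Trpv1 values that did not overlap but did not pass the test. The aged EH rats had 88.2, 100.1, 82.5, 90.0 and 94.96 normalized counts and the adult EH rats 70.2, 77.3, 58.1, 77.1 and 63.4. Every aged rat was above every adult rat. The LFC was 0.40 (SE 0.119, 95% interval 0.14 to 0.65) with a limma adjusted p of 0.0667, and across 20 alternative settings the LFC ran from 0.34 to 0.44 and the adjusted p from 0.0413 to 0.143. Without overlap between their groups were 2 of 10 members in ageing, Trpv1 and Trpm2, against 6.38% of all genes.

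Trpv4, a channel that opens on cell swelling, did not pass the test in any comparison. Adult EH rats had 27.9, 32.4, 39.9, 38.5 and 31.8 normalized counts and adult DH rats 45.5, 38.3, 53.9, 38.2 and 36.2. A pair of the DH rats was above all EH rats and the other DH rats were within the EH range. The LFC was 0.30 with a wide 95% interval of -0.05 to 0.66 (limma adjusted p = 0.256). In aged rats it was 0.04 (95% interval -0.39 to 0.47), and in ageing -0.18 (95% interval -0.55 to 0.19).

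Trpv2, a relative of Trpv1 that responds to stretch and very high heat and is insensitive to capsaicin, rose with DH at both ages. In adult rats the normalized counts were 843, 918, 933, 863 and 879 in EH and 1159.9, 1202, 1384, 1231 and 1199.9 in DH. All DH rats were well above all EH rats. The means were 887 ± 37.6 and 1235 ± 86.9 (SD, n = 5 each), an LFC of 0.48 with an SE of 0.0502 (limma adjusted p = 3.81e-05).

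In aged rats Trpv2 counts were 985, 957, 1083, 966 and 903 in EH and 1196, 1276, 1341, 1311 and 1199.8 in DH. Again the groups were separate. The means were 979 ± 65.8 and 1265 ± 65.2 (SD, n = 5 each), which is 0.37 on the log2 scale (SE 0.0530, limma adjusted p = 0.00131). Both calls were kept under each of 21 alternatives. The response in aged rats less that in adult rats was -0.10 (95% interval -0.26 to 0.05, limma adjusted p = 0.686), which leaves the sizes indistinguishable. Ageing itself moved Trpv2 by 0.08 (95% interval -0.03 to 0.19, limma adjusted p = 0.408).

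Because Trpv2 was higher in DH at both ages, the 250 bases before its RefSeq start site are shown, from chr10:47771973-47772222 on the plus strand of GRCr8, an assembly other than the one the reads were aligned to. The capitals mark the letters of the core bound by the NFAT family (TGGAAA, here read on the other strand), which begin 112 bases before the start site.

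Trpv2: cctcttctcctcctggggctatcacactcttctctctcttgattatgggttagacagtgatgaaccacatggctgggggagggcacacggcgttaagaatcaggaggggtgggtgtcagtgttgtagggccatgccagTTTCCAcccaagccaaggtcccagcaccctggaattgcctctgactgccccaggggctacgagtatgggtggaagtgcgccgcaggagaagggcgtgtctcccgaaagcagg

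Those 6 letters occur on either strand in 19.7% of 33469 such windows, so a match is common. The AP-1 motif TGANTCA (6.34% of windows), the cAMP response element TGACGTCA (1.59%) and the PU.1 core GAGGAAG (10.2%), searched on both strands, were not among the letters of this window. The window is 58.4% G or C, against a median of 51.2%. RefSeq windows matched 9 of the 10 members. Of these, the Trpm3 window at the gene start also held TGGAAA and GAGGAAG. A further Trpm3 window, 335769 bases inside the gene, held none of the 4 motifs. The window of Trpc4 starts 43455 bases inside the gene and that of Trpm2 1282 bases inside it, so neither is shown.

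Among the canonical (TRPC) members, Trpc4, a receptor-operated calcium channel opened by Gi/o and Gq signalling, had the largest response to DH of the 10 genes in adult rats. Normalized counts were 448, 414, 462, 409 and 436 in adult EH and 754, 665, 727, 754 and 614 in adult DH. The lowest DH rat was far above the highest EH rat. The means were 434 ± 22.3 and 703 ± 61.5 (SD, n = 5 each), an LFC of 0.69 with an SE of 0.0645 (limma adjusted p = 1.30e-05). The LFC ran from 0.66 to 0.74 over 21 alternatives and was called in each. Without overlap in adult DH were 2 of 10 members, Trpc4 and Trpv2, against 10.9% of all genes.

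In aged rats the rise of Trpc4 was smaller in value and near the threshold. Aged EH rats had 544, 521, 661, 582 and 466 normalized counts and aged DH rats 685, 662, 738, 648 and 637. A single aged EH rat, at 661, lay within the DH range and the other EH rats lay below it. The means were 555 ± 72.5 and 674 ± 40.2 (SD, n = 5 each), which is 0.29 on the log2 scale (SE 0.0806, limma adjusted p = 0.0444). The call was lost in 11 of 21 alternatives, in 8 of the 10 that left out a rat and also with edgeR, with no filter and without the trend, and the adjusted p ran from 0.00833 to 0.108. Over the members, 1 of 10 was without overlap in aged DH, Trpv2, against 7.05% of all genes. Markers of telencephalic glutamatergic neurons moved with this comparison, 3 of 5 being lower in aged DH (Slc17a7, Neurod6 and Neurod2), against 7.29% of all genes. The summed levels of the 5 were 837 to 1573 in aged DH and 1642 to 3982 in aged EH. The part of these markers in the Trpc4 value was not tested.

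Ageing left the Trpc4 value just outside the threshold. In the ageing table the aged EH rats had 545, 521, 661, 582 and 469 normalized counts and the adult EH rats 467, 431, 482, 427 and 455. The lowest aged rat lay within the adult range. The LFC was 0.29 (SE 0.0804, 95% interval 0.12 to 0.46) with a limma adjusted p of 0.0502, and the adjusted p ran from 0.0146 to 0.115 over 20 alternatives. It passed with edgeR (adjusted p = 0.0469) and with DESeq2 (adjusted p = 0.0146). All 5 telencephalic glutamatergic markers had an LFC above 0 in ageing, with a median of 0.69, and none was called. Their part in this Trpc4 value was not tested.

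The response of Trpc4 to DH was 0.40 lower on the log2 scale in aged than in adult rats by its value, and this difference did not pass the test (LFC difference -0.40, SE 0.107, 95% interval -0.62 to -0.18, unadjusted p = 0.00110, limma adjusted p = 0.232). It ran from -0.46 to -0.34 over 31 alternatives with adjusted p from 0.0419 to 0.478, and DESeq2 alone put it under the threshold. On the scale set over the 20 libraries, the Trpc4 means rose from 443 in adult EH to 546 in aged EH, 663 in aged DH and 718 in adult DH. In this order each group overlapped its neighbour. The aged EH rats, which stand between the other groups, enter both the ageing value and the aged DH value.

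**Figure D3:**
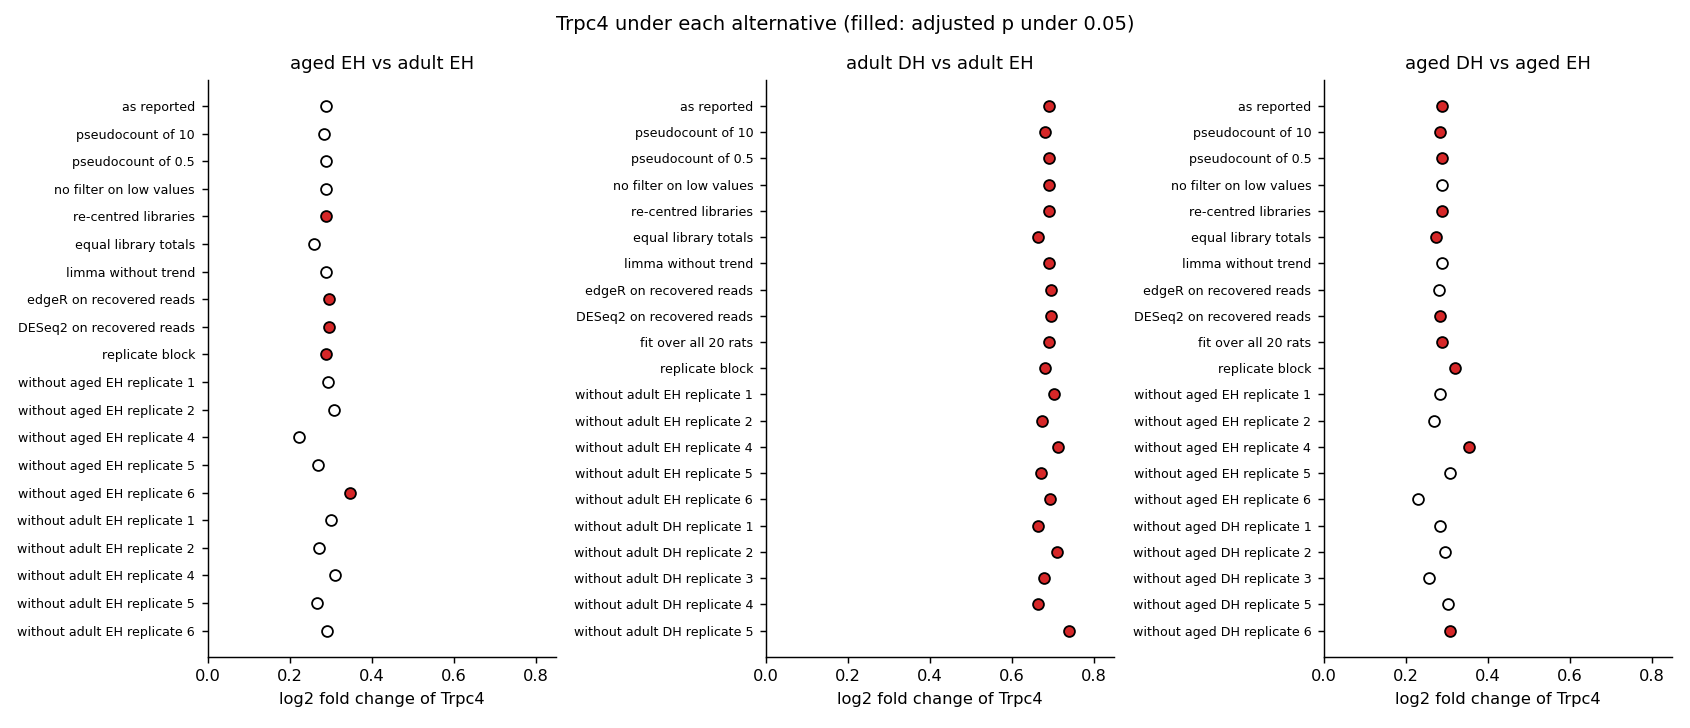
LFC of Trpc4 on the horizontal axis under each alternative setting, 1 row per setting, for ageing, adult DH and aged DH. Filled points have an adjusted p under 0.05. The adult DH values lie between 0.66 and 0.74 and are all filled, whereas those of ageing and aged DH lie between 0.22 and 0.35 and are filled in part.

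Trpc5, the closest relative of Trpc4 with which it can form mixed channels, had normalized counts of 678, 694, 741, 797 and 809 in aged EH and 844, 719.9, 945, 844 and 878 in aged DH. All but 1 DH rat were above all EH rats, and the LFC of 0.18 (SE 0.0726) did not pass the test (limma adjusted p = 0.152), although without aged DH replicate 2, the low rat, it did (adjusted p = 0.0475). Its LFC was 0.08 (95% interval -0.06 to 0.22) in adult DH and -0.01 (95% interval -0.16 to 0.13) in ageing. The antisense gene Trpc5os was listed at 0 in all 20 libraries. Trpc1, which mixes with other TRPC subunits, stayed within 95% intervals of -0.11 to 0.18 in adult DH, -0.08 to 0.16 in aged DH and -0.08 to 0.19 in ageing, with 597 to 818 reads per rat.

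Among the melastatin (TRPM) members, Trpm2, a calcium-permeable channel opened by ADP-ribose and oxidative stress, was the only one called. In ageing the normalized counts were 881, 953, 918, 902 and 974 in aged EH and 644, 748, 741, 675 and 648 in adult EH. The groups were far apart. The means were 925 ± 37.7 and 691 ± 50.3 (SD, n = 5 each), 0.42 apart on the log2 scale (SE 0.0547, limma adjusted p = 7.07e-04), and 20 alternatives kept the call with LFC from 0.39 to 0.45.

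Trpm2 did not pass the test with DH. The LFC was 0.04 (95% interval -0.08 to 0.16) in adult rats and -0.06 (95% interval -0.17 to 0.04) in aged rats. On the scale over the 20 libraries its means were 677 in adult EH, 694 in adult DH, 871 in aged DH and 909 in aged EH. The lowest aged DH rat was above the highest adult DH rat, and the 2 adult groups overlapped, as did the 2 aged groups.

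Trpm2 is known from microglia as well as neurons, and microglial markers were also higher in aged EH. All 10 markers had an LFC above 0 in ageing, with a median of 0.28. The test was passed by 4 (Cx3cr1, Itgam, P2ry12 and Trem2), against 5.99% of all genes. The summed level of the 10 was 7940 to 9115 in adult EH and 9269 to 10680 in aged EH, with no overlap. In DH rats it was 7463 to 8605 in adult DH and 8990 to 10889 in aged DH. None of the 10 was called in either DH comparison, against 12.7% of all genes in adult DH and 7.29% in aged DH. Some markers of other cell types were called lower in aged EH, against 5.99% of all genes called in ageing. They were 4 of 6 for oligodendrocytes, 1 of 2 for their precursors and 2 of 4 for meningeal fibroblasts. So were 2 of 5 for endothelial cells, 2 of 6 for astrocytes and 1 of 5 for mural cells. A count of 1 in so short a list does not set it apart from all genes. All 5 telencephalic glutamatergic markers had an LFC above 0 in ageing, with a median of 0.69, and none was called. The summed levels of the endothelial markers did not overlap (6744 to 7470 in aged EH and 7549 to 7843 in adult EH), nor did those of the oligodendrocyte precursor markers (3428 to 4296 and 4312 to 4892) and of the meningeal markers (2491 to 4405 and 5652 to 6663). After subtraction of the group means, Pearson's r of Trpm2 over the 20 rats was 0.39 with the microglial mean. It was as high with the mural (0.40) and endothelial (0.39) means, and -0.73 with the oligodendrocyte mean. The part of cell composition in the Trpm2 value was not tested.

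**Figure D4:**
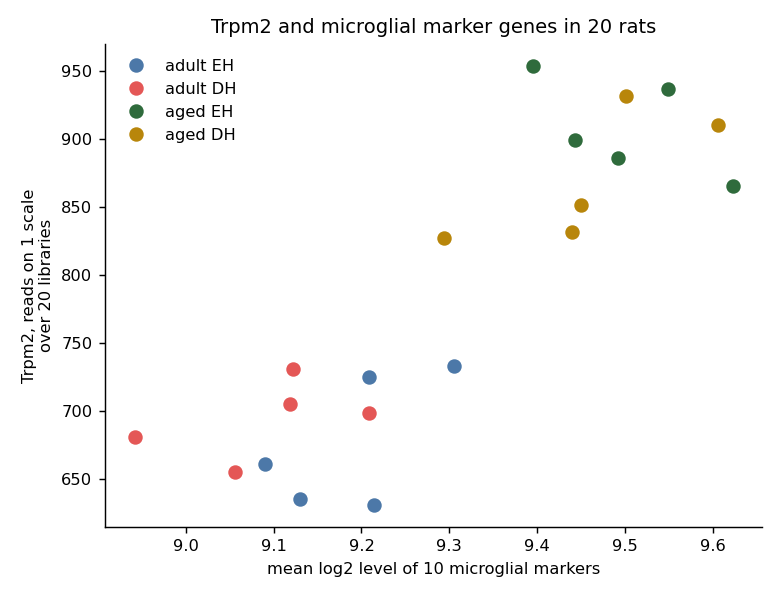
Trpm2 reads, scaled together over 20 libraries (vertical axis, starting above 0), against the mean log2 level of 10 microglial markers in the same library, with 1 point per rat coloured by group. The 10 aged rats lie above the 10 adult rats on the Trpm2 axis, and for the markers the aged rats are at 9.29 to 9.62 and the adult rats at 8.94 to 9.30.

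The other TRPM members did not pass the test in any comparison. Trpm4, a sodium-passing channel opened by intracellular calcium, had 127 to 152 normalized counts in adult EH and 131 to 195 in adult DH, where 3 of 5 rats were above all EH rats (LFC 0.20, 95% interval -0.06 to 0.45, limma adjusted p = 0.310). In aged DH its LFC was -0.08 (95% interval -0.32 to 0.17). Trpm3, a heat- and steroid-activated channel, had an LFC of 0.10 (95% interval -0.01 to 0.21) in adult DH and 0.07 (95% interval -0.07 to 0.21) in aged DH. Trpm7, the magnesium-permeable channel with a kinase domain, was held in narrow intervals, -0.10 to 0.08 in adult DH, -0.19 to 0.08 in aged DH and -0.16 to 0.09 in ageing.

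Across individual rats, after subtraction of group means on the log2 scale, Trpc5 and Trpm3 varied together (Pearson's r = 0.79 over 20 rats), as did Trpm3 and Trpm7 (r = 0.66), Trpc5 and Trpm7 (r = 0.53) and Trpv2 and Trpc4 (r = 0.54). Trpv2 and Trpm7 varied in opposite directions (r = -0.70). These values describe 20 libraries, and the genes of a library share its sequencing depth and tissue composition. Both differed between libraries, and their part in these values was not tested. Over 12 marker lists, the largest r of Trpv2 were 0.58 with the mean of the magnocellular markers and -0.58 with that of the oligodendrocyte precursor markers. Those of Trpc4 were 0.41 with microglial, -0.40 with meningeal fibroblast and 0.40 with magnocellular markers. In adult DH 1 of the 5 magnocellular markers, Avp, was higher (LFC 0.48, limma adjusted p = 0.0221), against 12.7% of all genes called. In aged DH Avp did not pass the test (LFC 0.21, limma adjusted p = 0.502). Another of the 5, Sim1, was lower there (LFC -0.30, limma adjusted p = 0.0484), against 7.29% of all genes called.

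Of 12607 genes with a mean of at least 50, those most alike to Trpc4 in this way were Ddx55 (r = 0.85), Bag1 (r = 0.83) and Etv5 (r = 0.80). For Trpv2 they were B3gat3 (r = 0.87), Aup1 (r = 0.85) and Tmem183a (r = 0.83). Zfp382 (r = 0.78), Sco1 (r = 0.76) and Chrnb2 (r = 0.74) were nearest to Trpm2. Dst (r = 0.87), Usp34 (r = 0.87) and Ttbk2 (r = 0.85) were nearest to Trpc5, and Greb1l (r = 0.88), Arhgap5 (r = 0.83) and Gna13 (r = 0.82) to Trpm7. For Trpm3 they were Klf12 (r = 0.84), Cbl (r = 0.83) and Zbtb20 (r = 0.82), and for Trpc1 Pitrm1 (r = 0.84), Tll1 (r = 0.75) and Ptp4a2 (r = 0.75). The sparsely counted members had as nearest genes Atp5mc3 (r = 0.81), Asgr2 (r = 0.74) and Sh2b2 (r = 0.73) for Trpv1, Gprc5a, Prss23 and Map3k7cl (each r = 0.75) for Trpv4, and Coro1b (r = 0.80), Slc35f2 (r = 0.79) and Gbp2 (r = 0.76) for Trpm4. All these genes were picked for the largest r among the genes searched, over 20 rats. With so many genes and so few rats, selection alone can give high r. Whether any listed r exceeds that level was not tested, so the names are a ranking only.

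None of the other TRP channel genes analysed here passed the test in any comparison. The shares over all genes were 5.99% in ageing, 12.7% in adult DH, 7.29% in aged DH and 0% for the age difference. With 12 genes tested, counts of 0 do not set these relatives apart from all genes. Of 17 listed, 12 passed the filter (Trpa1, Trpc2, Trpc6, Trpc7, Trpm1, Trpm6, Trpm8, Trpv3, Mcoln1, Mcoln3, Pkd2 and Pkd2l2), and Trpm5, Trpv5, Trpv6, Mcoln2 and Pkd2l1 were under it. The diacylglycerol-gated Trpc6 and Trpc7 had LFC of 0.02 each in adult DH. The smallest adjusted p values among the 12 were 0.104 for Pkd2, the polycystin channel of cilia and endoplasmic reticulum (LFC 0.17 in adult DH), and 0.120 for Mcoln3, an endolysosomal channel (LFC 0.75 in ageing). The median LFC of the 12 was 0.11 in ageing, 0.02 in adult DH and 0.0030 in aged DH.

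Of 19 genes of phospholipase C and store-operated calcium signalling, which act with TRPC channels, 2 were called in adult DH, against 12.7% of all genes, so the count does not set the list apart. Both were higher, and the median LFC of the list was -0.00052. They encode pore subunits of the store-operated channel. Orai1 was 302 ± 22.2 in adult DH and 214 ± 18.9 in adult EH (SD, n = 5 each), an LFC of 0.49 (limma adjusted p = 0.00114). Orai3 was 382 ± 28.0 and 301 ± 27.2 (SD, n = 5 each), an LFC of 0.34 (limma adjusted p = 0.00887).

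In aged DH, Orai3 was higher (LFC 0.29, limma adjusted p = 0.0468) and Plcb1, a phospholipase C activated by Gq, was lower (LFC -0.23, limma adjusted p = 0.0179), against 7.29% of all genes called. The Orai3 call there was lost in 13 of 21 alternatives and that of Plcb1 in 4. The median LFC of the 19 was -0.03 in aged DH and -0.02 in ageing, where none was called, against 5.99% of all genes. Of 14 scaffold and partner genes, 2 were called in adult DH and 2 in aged DH, against 12.7% and 7.29% of all genes. The kinase gene Prkce, which phosphorylates Trpv1, was lower in adult DH (LFC -0.22) and in aged DH (LFC -0.28). Prkca, another protein kinase C gene, was higher in adult DH (LFC 0.24). Akap5, the anchoring protein that holds kinases at Trpv1, was lower in aged DH (359 ± 66.02 against 510 ± 41.3, SD, n = 5 each, LFC -0.52, limma adjusted p = 0.00875). The telencephalic markers Slc17a7 (LFC -1.92), Neurod6 (LFC -2.49) and Neurod2 (LFC -1.86) were lower in the same comparison, and their part in the values of Akap5, Prkce and Plcb1 was not tested. In ageing none of the 14 was called, against 5.99% of all genes.

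Of 5 genes of ADP-ribose metabolism, which makes and removes the ligand of Trpm2, Cd38, the main NAD glycohydrolase, was lower in ageing (488 ± 84.5 against 658 ± 66.9 in the adult EH rats, SD, n = 5 each, LFC -0.44, limma adjusted p = 0.0299). The call was lost in 7 of 20 alternatives. Parp1, Parg, Nudt9 and Bst1 did not pass the test. None of the 5 was called in either DH comparison. With 5 genes, counts of 0 or 1 cannot be told apart from the shares over all genes (5.99% in ageing, 12.7% in adult DH and 7.29% in aged DH). Their median LFC was -0.02 in ageing.

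Among 14 tested genes of other stretch, volume and sodium channels, 3 were higher and 2 lower in adult DH, against 12.7% of all genes called, with a median LFC of 0.09. Scn7a, the sodium-level sensor, had an LFC of 0.53 (limma adjusted p = 0.0306), and Lrrc8d, a subunit of the volume-regulated anion channel, 0.14, and Tmem63c, of an osmosensitive channel family, 0.12. Both genes that fell encode mechanically gated potassium channels, Kcnk2 (LFC -0.19, limma adjusted p = 0.00442) and Kcnk4 (LFC -0.37, limma adjusted p = 0.0320). Of 21 alternatives, the call was lost in 12 for Lrrc8d, in 9 for Scn7a, in 7 for Kcnk4 and in 5 for Tmem63c. In ageing 1 of the 14, the water channel gene Aqp4, was lower (LFC -0.26, limma adjusted p = 0.0180), against 5.99% of all genes called. In aged DH none of the 14 passed the test by limma, against 7.29% of all genes, and the median LFC was 0.06. At an unadjusted limma p under 0.05 were 6 of the 14 there, against 3282 of 15346 genes. Counts of 0 or 1 among 14 genes do not set the list apart from all genes.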

How the data were processed

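The authors aligned stranded poly(A) RNA-seq reads to the rat assembly Rn6 with STAR and counted them per gene with featureCounts (tool versions: not given in the sources used here). In each library the deposited signal is, per the authors, a gene's read count divided by a DESeq2 size factor estimated within 1 of 3 tables. Columns of the authors' own comparisons (fold changes, p-values, means) were not used. All 30 per-sample columns were. Values were whole multiples of 1 step per library within 0.1 read, so reads were recovered.

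Genes with a mean of at least 10 were tested on log2(value + 1) with limma 3.58.1 (R 4.3.3, empirical Bayes with trend), two-sided, adjusted by Benjamini-Hochberg over all genes at 0.05, within each table. The age difference used all 20 rats, each from the DH table of its age. A fold change on this scale understates that of low genes. The limma p-values set the difference between groups against the spread between rats, moderated over all genes. The study assigned whole cages to EH or DH, and the labels give no cage, so cage was not in the fits. The p-values therefore treat rats of the same cage as independent. Alternatives were other pseudocounts, filters and scalings, edgeR 4.0.16, DESeq2 1.42.0 and leaving out each rat. The fits were tested on simulated data. The members and lists were chosen with earlier results of these data known. All members are named, as are tested TRP relatives, list genes called at least once, and the 3 genes most alike to each member. RefSeq windows are of GRCr8, so no Rn6 positions are given. Motifs were chosen with results known. An item of the list of TRP relatives is not reported here.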

Additional observations from a re-analysis of the deposited data

How the results depend on the processing

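In adult DH the number of members called stayed at 2 of 10, Trpv2 and Trpc4, under each alternative. In ageing, 1 member was called, and 2 were called with re-centred libraries, with edgeR, with DESeq2 and with the replicate block (Trpm2 and Trpc4) and without the trend (Trpm2 and Trpv1). When each rat was left out in turn the number was 1 to 2, and it was 2 without aged EH replicate 6, where Trpc4 joined. In aged DH, 2 members were called, and 1 (Trpv2) with no filter, without the trend and with edgeR. When each rat was left out in turn the number was 1 to 2, Trpc4 being lost without aged EH replicate 1, 2, 5 or 6 and without aged DH replicate 1, 2, 3 or 5. Without aged DH replicate 2 the number stayed at 2, as Trpc5 then passed. For the difference between the ages 0 members were called, and 1 (Trpc4) with DESeq2, an alternative added after seeing the data, like edgeR and a joint scaling there. The causes of these changes were not tested.

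Replicate numbers do not pair rats across groups: deviations of same-numbered rats from their group means correlated at -0.13 to 0.21. The replicate block moved the number of genes called from 921 to 824 in ageing. All numbers occur in both ageing groups, so the same rats without the block repeat the main fit there (921 genes). That repeat is counted among the ageing alternatives and could not differ. In the DH comparisons the block used only the rats whose numbers occur in both groups. It gave 980 in adult DH and 635 in aged DH, against 1284 and 825 for the same rats without it and 1934 and 1119 for all rats. It called 3 genes for the age difference, against 1 for the same rats. Small values that no test called changed sign. With the replicate block, and for the same rats without it, LFC became -0.022 for Trpv1 and 0.032 for Trpm7 in adult DH, and -0.096 for Trpc1 and -0.043 for Trpc5 in the age difference. Leaving out rats gave LFC ranges of -0.045 to 0.033 for Trpc5 and -0.077 to 0.0015 for Trpm7 in ageing, -0.0063 to 0.079 for Trpc1, -0.031 to 0.094 for Trpv1 and -0.029 to 0.013 for Trpm7 in adult DH, -0.063 to 0.15 for Trpv4 in aged DH, and -0.040 to 0.046 for Trpc1, -0.067 to 0.026 for Trpm3 and -0.074 to 0.0018 for Trpm7 in the age difference. Calls of list genes were lost in 61 fits in all, most often for Orai3 in aged DH (13), Lrrc8d in adult DH (12) and Scn7a in adult DH (9). Depth limits Trpv4 and Trpv1 most.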
